A study of Rattus norvegicus with 48 samples.

Results

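The family of miR-148a, miR-148b and miR-152 in rat liver was followed through repeated dosing with thioacetamide (TAA), a compound that injures the liver. The family was taken as every mature miRNA whose name starts with rno-miR-148a-, rno-miR-148b- or rno-miR-152-. This gave 6 mature strands from 3 precursors among the 664 miRNAs with a read, namely rno-miR-148a-3p, rno-miR-148a-5p, rno-miR-148b-3p, rno-miR-148b-5p, rno-miR-152-3p and rno-miR-152-5p. All 6 were among the 301 miRNAs that passed the filter on low values (at least 5 RPM, that is reads scaled to the library total, in at least 3 libraries) and were tested. Male Sprague-Dawley rats were dosed with TAA once a day for 3, 7, 14 or 28 days at 4.5 mg/kg (low dose), 15 mg/kg (middle dose) or 45 mg/kg (high dose), and a control group at each time point received only the vehicle. With 3 rats in each of the 16 groups there were 48 small RNA libraries, 1 per rat, from pieces of whole liver, and a group is named here by dose and days (for example low 14-d) and a rat by its running number. In whole liver, fewer cells of a type and less RNA per cell cannot be told apart.

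MicroRNAs are cut from a hairpin precursor whose arms give a 5p and a 3p strand. The strand that enters the silencing complex (the guide) finds target mRNAs mainly through its seed, a stretch near its 5′ end, and the partner strand is mostly degraded. In this family the 3p strands are the guides and share their seed. miR-148a is known as an abundant miRNA of hepatocytes. The family is known to repress DNA methyltransferases, which set DNA methylation, and the LDL receptor and the transporter ABCA1, which move cholesterol into and out of the hepatocyte.

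The mature strands are shown to make clear which bases the members share and which tell them apart in sequencing. Letters are from RefSeq (build GRCr8), which held 5 of the 6 members (no entry was matched for rno-miR-148b-5p), written 5′ to 3′ with the seed, bases 2 to 8, in capitals. The 3p strands were
rno-miR-148a-3p: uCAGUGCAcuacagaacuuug
rno-miR-148b-3p: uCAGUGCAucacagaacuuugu
rno-miR-152-3p: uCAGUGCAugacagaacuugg
and the 5p strands were
rno-miR-148a-5p: aAAGUUCUgagacacucugacuc
rno-miR-152-5p: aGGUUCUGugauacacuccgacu
Of 693 rat mature sequences in the RefSeq table, 3 carry the seed CAGUGCA, and these are the 3 guide strands. The seeds of rno-miR-148a-5p and rno-miR-152-5p each occur in 1 sequence, their own. Counted from 1 at the 5′ end of rno-miR-148a-3p, rno-miR-148b-3p differs from it by C9U and U10C, so that 19 of 21 compared bases are identical. rno-miR-152-3p differs from rno-miR-148a-3p by C9U, U10G and U20G, with 18 of 21 identical. Between rno-miR-148b-3p and rno-miR-152-3p the differences are C10G and U20G. All differences lie outside the seed, and a read with errors at these positions could be counted for another member.

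The hairpin of miR-148a is given because both of its strands are compared throughout. In it the 5p strand comes first and the 3p strand second, both in capitals.
Mir148a hairpin: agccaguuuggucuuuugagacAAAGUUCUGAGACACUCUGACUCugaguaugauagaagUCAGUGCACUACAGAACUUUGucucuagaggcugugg
It lies at chr4:81664431-81664527 on the minus strand, outside any other gene of the annotation. The Mir148b hairpin at chr7:136299870-136299966 on the plus strand overlaps the protein-coding gene Copz1. The Mir152 hairpin at chr10:82329383-82329467 overlaps the related gene Copz2, and rno-miR-152-3p itself lies at chr10:82329435-82329455 on the plus strand. Copz1 and Copz2 encode subunits of the coat of vesicles that move between the Golgi apparatus and the endoplasmic reticulum.

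Some libraries stood apart before any member was considered. Total counts were between 293331 and 14906217 with a median of 10237542, and the lowest belonged to control 3-d rat 1, in which 3 counts equal 10.2 RPM. The next lowest total was 4829217. That control was also far from the rest in a principal component analysis without the members (29.6 on component 1, against -6.44 to 5.34 in the others), and its summed level of 4 red blood cell miRNAs was 98080.3 RPM, against at most 6724 RPM in the other 11 controls. Component 2, with 17% of the variance, separated 11 libraries (scores of -7.57 to -4.96) from the other 37 (-1.29 to 7.10). The 11 were the 9 low-dose libraries of the first 3 time points (rats 40 to 48), low 28-d rat 29 and high 7-d rat 27. Their totals, 7657717 to 11004474 counts, were within the range of the others. Since every low-dose library before 28-d belongs to this set, low dose and membership of the set cannot be told apart at these times. Hepatocyte markers were present in every library, with a median of 35378 normalized RPM for rno-miR-122-5p.

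The family was almost entirely miR-148a-3p. By mean RPM rno-miR-148a-3p ranked 4 among all miRNAs with 59163 RPM, followed by its partner strand rno-miR-148a-5p at rank 31 with 3015 RPM and rno-miR-148b-3p at rank 48 with 1146 RPM. rno-miR-152-3p ranked 102 with 219 RPM, rno-miR-148b-5p 175 with 39.7 RPM and rno-miR-152-5p 190 with 26.7 RPM. Of the reads that carry the shared seed, rno-miR-148a-3p gave 95.3% to 98.5% per library, rno-miR-148b-3p 1.29% to 4.37% and rno-miR-152-3p 0.205% to 0.598%. The median share of miR-148a-3p was 98.1% in the 12 controls and 97.7% in the 36 treated libraries. The members are 21 to 23 bases long, so their RPM were not scaled by length, and ligation of adaptors can favour some small RNAs over others.

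**Figure D1:**
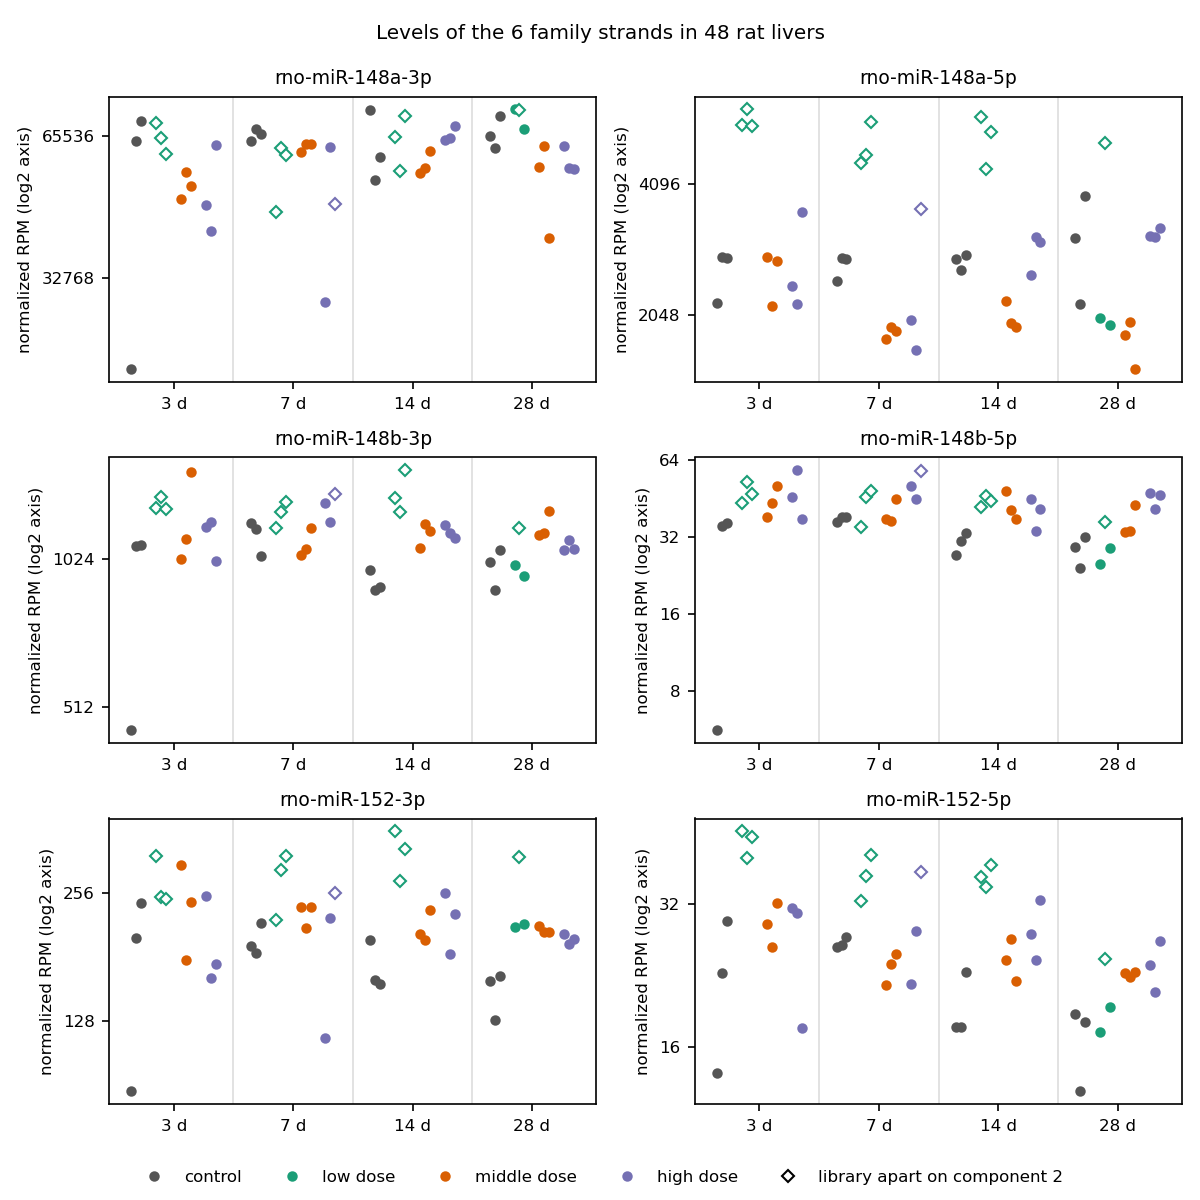
Level of each family strand in each of the 48 libraries, in upper quartile normalized RPM on a log2 axis, by days of dosing (x axis) and, within each time point from left to right, control, low, middle and high dose. Each point is 1 rat and open diamonds are the 11 libraries that stood apart on component 2. miR-148a-5p lay between 3599 and 6072 in those 11 libraries and between 1540 and 3856 in the other 37.

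The guide strand miR-148a-3p was called in none of the 12 treatment conditions. Levels below are upper quartile normalized RPM. In the 12 controls it had a lowest level of 20955, a median of 64940.4 and a highest of 74560.3, and in the 36 treated libraries 29073, 60773 and 74738. The lowest of all was control 3-d rat 1, and the lowest treated library was high 7-d rat 25. Ordered by mean, the 16 groups ran from high 7-d (46110.3 ± 16533, SD, n = 3) to low 28-d (72407 ± 3897, n = 3), and each group overlapped its neighbour in that order. The widest spread within a treated group was at high 7-d, where the 3 rats had 29073, 62088 and 47169.7 against 64159, 67838 and 66280.5 in the controls. This fell short of a call, with a log2 fold change of -0.52 ± 0.25 (SE) and an adjusted p of 0.218 in edgeR's quasi-likelihood test. The low 7-d rats (45286.5, 61920 and 59873) and the middle 7-d rats (60620, 63176.5 and 63028.9) were also below all 3 controls. Their log2 fold changes were -0.25 ± 0.12 and -0.09 ± 0.05 (adjusted p = 0.128 and 0.26 in edgeR), and neither was called. How many of all tested miRNAs separated in this way at 7-d is not given here.

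A miRNA was called in a condition if its unadjusted p was below 0.05 and its fold change above 1.5 in edgeR's quasi-likelihood test of the 3 treated against the 3 control libraries of the same day, with the Benjamini-Hochberg adjusted p over all 301 given beside it. The 3 doses of a time point share their controls. By this rule miR-148a-3p was called in 0 of the 12 conditions, with log2 fold changes from -0.52 to 0.33 and 0 unadjusted p below 0.05. Leaving out high 7-d rat 26 gave a call there, at -0.79 (unadjusted p = 0.00827, edgeR), and so did other settings (-0.62 with TMM and -0.65 with the size factors of DESeq2), no filter (-0.74) and the Wald test of DESeq2 (-0.65).

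The partner strand miR-148a-5p was called higher in 3 conditions, all at low dose, and lower in 1. At low 3-d the rats had 5585, 6072 and 5556 against 2190.2, 2786 and 2771 in the controls. At low 7-d they had 4579, 4779.7 and 5690.2 against 2454, 2771 and 2756, and at low 14-d 5822, 4435 and 5387 against 2763, 2597 and 2817. All 9 low-dose libraries of these days were above all 9 of their controls, and how common this was among all tested miRNAs is not given here. The log2 fold change was 1.15 ± 0.24 at low 3-d (adjusted p = 0.155 in edgeR), 0.92 ± 0.11 at low 7-d (adjusted p = 0.000344) and 0.94 ± 0.13 at low 14-d (adjusted p = 0.00044), and all 3 were called. Without control 3-d rat 1 the low 3-d value was 1.05 with an adjusted p of 0.00184. In these conditions 16.6% (low 3-d), 28.9% (low 7-d) and 32.6% (low 14-d) of all tested miRNAs were called, so such a call was common.

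These are the 9 low-dose libraries of the set that stood apart, and miR-148a-5p was high in the other 2 libraries of the set as well. Low 28-d rat 29 had 5087, while rats 28 and 30 of the same group had 2015 and 1945. High 7-d rat 27 had 3599, while rats 25 and 26 had 1994 and 1705. Thus within a group that the set divides, the member of the set was the highest, and over all doses the level was 3599 to 6072 in the set and 1540 to 3856 elsewhere. Without rat 29 the low 28-d difference moved from -0.01 (adjusted p = 0.99) to -0.62 (unadjusted p = 0.0367, adjusted p = 0.191, edgeR), which met the call rule as lower. Without rat 27 the high 7-d difference moved from -0.13 to -0.52 (adjusted p = 0.0621). Among the 37 libraries outside the set, the log2 level of miR-148a-5p still fell along component 2 (Pearson's r = -0.77, n = 37, the libraries sharing their scaling), whereas for miR-148a-3p r was -0.23. What sets these libraries apart was not tested.

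**Figure D2:**
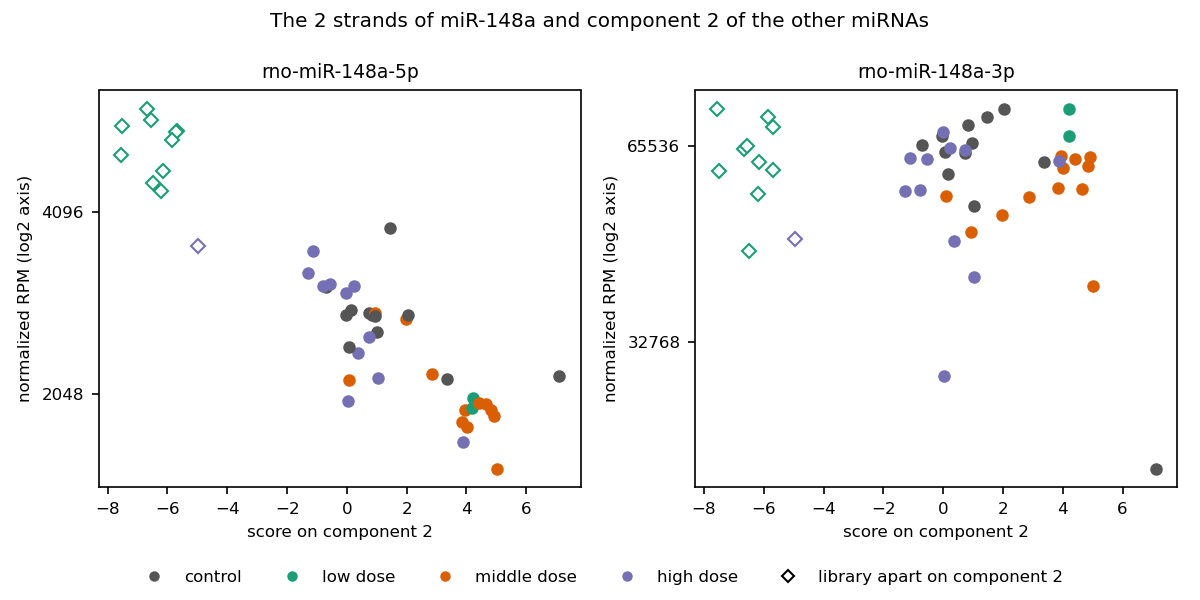
Normalized RPM (log2 axis) of both strands of miR-148a against the score of each library on component 2, which was computed from the other tested miRNAs. Points are the 48 libraries coloured by dose, with the 11 that stood apart as open diamonds. miR-148a-5p falls from left to right also among the 37 filled points (r = -0.77), and miR-148a-3p does so less (r = -0.23).

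At middle dose miR-148a-5p was lower than in controls from 7-d on. The rats had 1805, 1926 and 1884 at middle 7-d, 2213, 1969.5 and 1931 at middle 14-d and 1843, 1982 and 1539.8 at middle 28-d, with 3075, 2173 and 3856 in the 28-d controls. On each of these days all 3 treated libraries were below all 3 controls, and how common this was among all tested miRNAs is not given here. The log2 fold change was -0.51 ± 0.08 at 7-d (adjusted p = 0.00263 in edgeR), -0.42 ± 0.11 at 14-d (adjusted p = 0.0218) and -0.76 ± 0.22 at 28-d (adjusted p = 0.0204). Only the last passed the fold threshold of 1.5 and was called, in a condition where 32.9% of all tested miRNAs were called. Without control 28-d rat 18, the highest control, it was -0.55 and not called, and with library size alone as the scaling it was -0.48. At middle 7-d and middle 14-d 15.9% and 17.3% of all tested miRNAs were called. At middle 3-d the log2 fold change was -0.01 ± 0.36 and 2.99% of all tested miRNAs were called. At high dose the 4 values were between -0.13 and 0.08, with adjusted p from 0.778 to 0.938 and in order of time 11.3%, 21.3%, 9.3% and 15.3% of all tested miRNAs called.

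High-dose and low-dose libraries differed for this strand before 28-d, where low dose and membership of the set that stood apart cannot be told apart. In a single edgeR fit of all 48 libraries, high minus low was -1.09 ± 0.25 on the log2 scale at 3-d (adjusted p = 0.00835), -1.04 ± 0.25 at 7-d (adjusted p = 0.0197) and -0.86 ± 0.25 at 14-d (adjusted p = 0.0163). At 28-d it was 0.06 ± 0.25 (adjusted p = 0.932). Among all tested miRNAs 13.6%, 8.64%, 19.3% and 2.66% passed this test at the respective times. Before 28-d the low-dose side consists of libraries of the set that stood apart, so no value without them exists. At 28-d the difference without rat 29 was 0.67 (adjusted p = 0.0614). The 7-d call was lost without low 7-d rat 46 or 48 or high 7-d rat 25 or 26 (-1.11 to -0.84), and the 14-d call without low 14-d rat 40 or high 14-d rat 7 (-0.77 in both). The 14-d call was also lost with library size alone (-0.49) and with no filter (-0.61).

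Compared within a library, where no scaling is needed, the log2 ratio of miR-148a-3p to miR-148a-5p had a mean of 4.64 ± 0.06 (SD, n = 3) in the 7-d controls, that is 24.9 reads of 3p for each of 5p. It was 3.47 ± 0.20 at low 7-d, 5.06 ± 0.02 at middle 7-d and 4.25 ± 0.81 at high 7-d, so the low and middle doses lay on opposite sides of the controls. In the 11 libraries that stood apart the ratio was between 3.31 and 3.87. In the other 37 it was between 3.26 and 5.21, and 3.87 was the lowest value among them once control 3-d rat 1 was left out. With the 9 treated libraries of a time point pooled against the 3 controls, the difference was in order of time -0.13, -0.38, -0.18 and 0.11. None of these passed a 2-sided exact permutation test (p from 0.427 to 0.736, adjusted over 12 ratio tests 0.57 to 0.736, smallest possible p 0.00909). Pooling the doses joins low-dose and middle-dose libraries, whose means before 28-d lay on opposite sides of the control mean. At 3-d the control mean (4.15) includes rat 1 (3.26), and the middle 3-d mean (4.34) was below the other controls (4.52 and 4.67). Without the libraries that stood apart the differences were 0.14, 0.21, 0.17 and 0.20 (exact permutation p from 0.31 to 0.643). Before 28-d these differences rest on middle and high dose only.

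**Figure D3:**
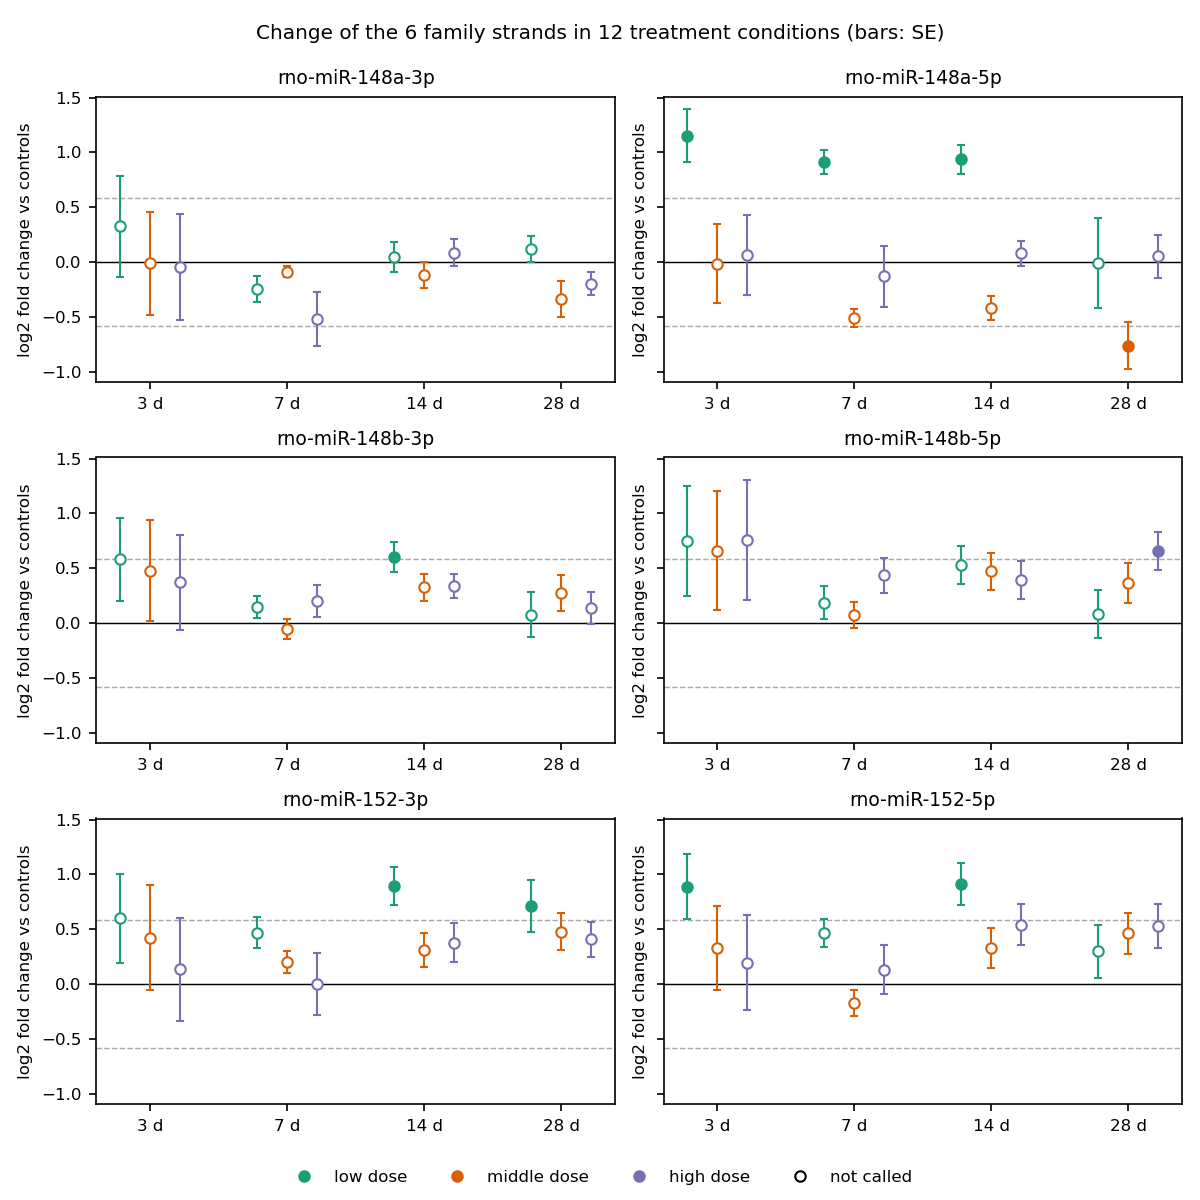
Log2 fold change of each family strand against the time-matched controls (y axis, bars are SE from edgeR, 3 treated and 3 control libraries) by days of dosing (x axis) and dose (colour). Filled points are called conditions and dashed lines mark a fold change of 1.5. miR-148a-5p has filled points at low dose before 28-d (0.92 to 1.15) and at middle 28-d (-0.76), and miR-148a-3p has none.

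miR-148b-3p is a guide strand from a locus inside Copz1. In the 14-d controls its levels were 974, 886 and 898, and at low 14-d they were 1359.8, 1274 and 1549. The middle 14-d rats had 1076, 1208 and 1169.9, and the high 14-d rats had 1198, 1156 and 1128. All 9 treated libraries of this day were above all 3 controls, and how common this was among all tested miRNAs is not given here. The log2 fold change was 0.60 ± 0.14 at low 14-d (adjusted p = 0.0054 in edgeR), 0.32 ± 0.12 at middle 14-d (adjusted p = 0.0802) and 0.34 ± 0.11 at high 14-d (adjusted p = 0.146). At middle 14-d and high 14-d 17.3% and 9.3% of all tested miRNAs were called, and this strand was not. Low 14-d was the only called condition of the 12 for this strand, where 32.6% of all tested miRNAs were called. It stood just above the fold threshold, which is 0.58 on the log2 scale, and fell below it without low 14-d rat 42 (0.52) or control 14-d rat 14 or 15 (0.57 and 0.58) and under other scalings (0.44 with TMM). Over the 12 conditions the log2 fold change was between -0.06 and 0.60.

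miR-148b-5p, its partner strand, was scarce, with 24.3 to 58.1 in all libraries but control 3-d rat 1, where 2 reads gave 5.64. At high 28-d the rats had 47.3, 41 and 46.5 against 29.2, 24.3 and 32 in the controls. The groups did not overlap, and how common this was among all tested miRNAs is not given here. High 28-d was its 1 called condition, with a log2 fold change of 0.66 ± 0.17 (unadjusted p = 0.00332, adjusted p = 0.0714 in edgeR) and 15.3% of all tested miRNAs called. Without control 28-d rat 17 it was 0.56 and not called. At low 14-d the log2 fold change of 0.53 ± 0.17 had an adjusted p of 0.03 in edgeR but stayed under the fold threshold, and without control 14-d rat 15 it was 0.60 and called. At 3-d the values at low, middle and high dose were 0.75, 0.66 and 0.76 with SE of 0.50 to 0.55. Without control 3-d rat 1 they were 0.42, 0.30 and 0.40.

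miR-152-3p, the guide strand from the Copz2 locus, had its lowest group means in controls. The 28-d controls (150.4 ± 19, SD, n = 3) were the lowest of the 16 groups, followed by the 14-d controls (171 ± 23.5), and low 14-d was the highest (318 ± 42.2). At low 14-d the rats had 357, 273 and 324 against 198, 159.5 and 156 in the controls. The log2 fold change was 0.89 ± 0.17 (adjusted p = 0.00268 in edgeR), as one of 4 members called in this condition, where 32.6% of all tested miRNAs were called. At low 28-d the rats had 212, 310.0 and 216 against 159, 129 and 163, a log2 fold change of 0.71 ± 0.24 (adjusted p = 0.249), which was also called, with 12.3% of all tested miRNAs called. It was not called without rat 29, the library of the set that stood apart (0.51), or without control 28-d rat 17 (0.61, unadjusted p = 0.0632, edgeR). Middle 28-d (214, 207 and 207) and high 28-d (205, 194 and 199) did not overlap the controls either. How common this was among all tested miRNAs is not given here. The log2 fold changes were 0.48 ± 0.17 (adjusted p = 0.0458 in edgeR) and 0.41 ± 0.16 (adjusted p = 0.131), under the fold threshold. In these conditions 32.9% and 15.3% of all tested miRNAs were called. At low 7-d the log2 fold change was 0.47 ± 0.15 (adjusted p = 0.0301), under the fold threshold, and was called without low 7-d rat 46 (0.60) and with all 12 controls pooled (0.65).

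miR-152-5p was the scarcest member, with 12.9 to 45.4 normalized RPM. At low 3-d the rats had 45.4, 39.9 and 44.1 against 14.1, 22.8 and 29.4 in the controls, and at low 14-d 36.4, 34.7 and 38.6 against 17.6, 17.6 and 23. Both conditions were called, with log2 fold changes of 0.89 ± 0.30 (adjusted p = 0.219 in edgeR) and 0.91 ± 0.19 (adjusted p = 0.00372). In them 16.6% and 32.6% of all tested miRNAs were called. All treated libraries of both conditions belong to the set that stood apart. In that set the median of miR-152-5p was 37.3, against 23.7 in the other libraries. The low 3-d call was lost without low 3-d rat 43 or 45 or control 3-d rat 2 (0.86 to 0.89), and without control 3-d rat 1 its adjusted p was 0.0299 with a log2 fold change of 0.72. At low 7-d the log2 fold change was 0.46 ± 0.13 (adjusted p = 0.0201), under the fold threshold. The high 14-d value of 0.54 ± 0.19 and the high 28-d value of 0.53 ± 0.20 stayed under the fold threshold. They were called when single libraries were left out (0.59 to 0.68) and with library size alone (0.76 and 0.61), and the high 14-d value also with TMM (0.63) and with a filter of 5 RPM in every library (0.61). The difference between high and low dose passed at 3-d, with -0.71 ± 0.20 (adjusted p = 0.0165), where 13.6% of all tested miRNAs passed. It was lost without low 3-d rat 43 or 45 or high 3-d rat 24 (-0.69 to -0.48).

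Set against all tested miRNAs, the family was not called more often. Of the 72 tests of 6 members in 12 conditions, 9 were called higher and 1 lower (13.9%), beside 436 higher and 216 lower of 3612 tests over all tested miRNAs (18.1%). At low 14-d 4 of 6 members were called higher, beside 32.6% of all tested miRNAs called in either direction. The members' median log2 fold change was 0.75, beside 0.11 over all tested miRNAs. At low 3-d 2 of 6 were called, beside 16.6% of all tested miRNAs, and the medians were 0.67 and 0.16. At low 7-d 1 of 6 was called, beside 28.9%, with medians of 0.33 and 0.02. All low-dose libraries of these 3 conditions belong to the set that stood apart. At middle 28-d 32.9% of all tested miRNAs were called, and the 1 member called was lower. The members' median there was 0.32 and that of all tested miRNAs 0.02. Scaling moved these values. The median of all tested miRNAs shifted by -0.23 to 0.11 with TMM, by -0.22 to 0.12 with the size factors of DESeq2 and by -0.21 to 0.28 with library size alone. Each called value kept its sign under these scalings.

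With the doses averaged, members passed at 2 time points. At 3-d miR-148b-3p was 0.47 ± 0.15 higher on the log2 scale (adjusted p = 0.0177 in edgeR's fit of all 48 libraries) and miR-148b-5p 0.63 ± 0.20 higher (adjusted p = 0.0172), where 31.2% of all tested miRNAs passed. Both calls rested on control 3-d rat 1, and without it the values were 0.17 (adjusted p = 0.406) and 0.37 (adjusted p = 0.188). At 14-d miR-152-5p was 0.60 ± 0.17 higher (adjusted p = 0.0431), where 4.32% passed. Without the libraries that stood apart no low-dose library remains at 14-d, and the average of middle and high dose alone was 0.44 (adjusted p = 0.233). The call was also lost when any of 7 libraries was left out (0.53 to 0.62), controls 13 and 14 and treated rats 9, 31, 32, 33 and 42. At 7-d and 28-d 0 members passed in edgeR, beside 10.3% and 8.64% of all tested miRNAs, and 0 and 2 members had an unadjusted p below 0.05. The averaged value of miR-148a-5p at 7-d was 0.09 ± 0.21. Without the libraries that stood apart no low-dose library remains at 7-d, and the average of middle and high dose alone was -0.52 (adjusted p = 0.031 in edgeR). At 3-d, leaving out control 3-d rat 3 gave 0.63 for miR-152-3p and 0.65 for miR-152-5p, both called, and leaving out high 3-d rat 24 gave 0.49 for miR-152-5p.

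The effect of a dose at 28-d minus that at 7-d passed for 0 members at each dose in edgeR, beside 0% (low dose), 0% (middle dose) and 0.332% (high dose) of all tested miRNAs. At an unadjusted p below 0.05 there were 1, 1 and 0 members and 42, 29 and 48 of the 301. For miR-148a-5p at low dose the difference was -0.92 ± 0.36 (unadjusted p = 0.0132, adjusted p = 0.241), and without low 28-d rat 29 it was -1.53 and passed. For miR-152-5p at middle dose it was 0.63 ± 0.29 (unadjusted p = 0.034, adjusted p = 0.377). In control livers 33.6% of all tested miRNAs differed between the 4 time points, and of the members 1 did, miR-152-5p (adjusted p = 0.0339), whose control means were in order of time 22.1, 26.4, 19.4 and 16.5 normalized RPM. It was lost without control rat 4, 5, 6, 17 or 18. The other 5 members had adjusted p from 0.33 to 0.864.

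The guide strands that share a seed were also compared with each other inside each library. The log2 ratio of miR-152-3p to miR-148a-3p in controls was in order of time -8.13 ± 0.22, -8.39 ± 0.13, -8.50 ± 0.11 and -8.80 ± 0.11 (SD, n = 3). In the 9 treated libraries it was higher by 0.23, 0.51, 0.51 and 0.68. By the 2-sided exact permutation test p was 0.336, 0.00909, 0.0182 and 0.00909 in the same order, where 0.00909 is the smallest the design allows. Adjusted over the 12 ratio tests the last 3 were 0.0545, so none passed. At 7-d the 3 controls were between -8.52 and -8.25 and the 9 treated libraries between -8.23 and -7.53, and at 28-d they were between -8.91 and -8.69 and between -8.46 and -7.59, so that all 9 treated libraries were above all 3 controls on both days. Without the libraries that stood apart the differences were 0.31 at 7-d, 0.35 at 14-d and 0.65 at 28-d (exact permutation p of 0.0357, 0.0476 and 0.0121). At 7-d and 14-d these differences rest on middle and high dose only. Without high 14-d rat 8 the 14-d difference was 0.57 and its adjusted exact permutation p 0.0485.

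For miR-148b-3p against miR-148a-3p the treated libraries were higher by 0.31, 0.41, 0.40 and 0.31 on the log2 scale in order of time. The exact permutation p was 0.145, 0.0909, 0.0182 and 0.136, and the adjusted p for 14-d was 0.0545. At 14-d the controls were between -6.26 and -5.90 and the treated libraries between -5.93 and -5.44. Without high 14-d rat 9 the difference was 0.44 and its adjusted exact permutation p 0.0485. The ratio is to the abundant member. A higher value therefore means a larger share of the scarcer guide and does not by itself say which of them moved. At 7-d the log2 fold changes of miR-148a-3p at low, middle and high dose were -0.25, -0.09 and -0.52, with no call. Those of miR-152-3p were 0.47, 0.20 and 0.00, and those of miR-148b-3p 0.14, -0.06 and 0.20. At 28-d they were 0.12, -0.33 and -0.20 for miR-148a-3p and 0.71, 0.48 and 0.41 for miR-152-3p.

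**Figure D4:**
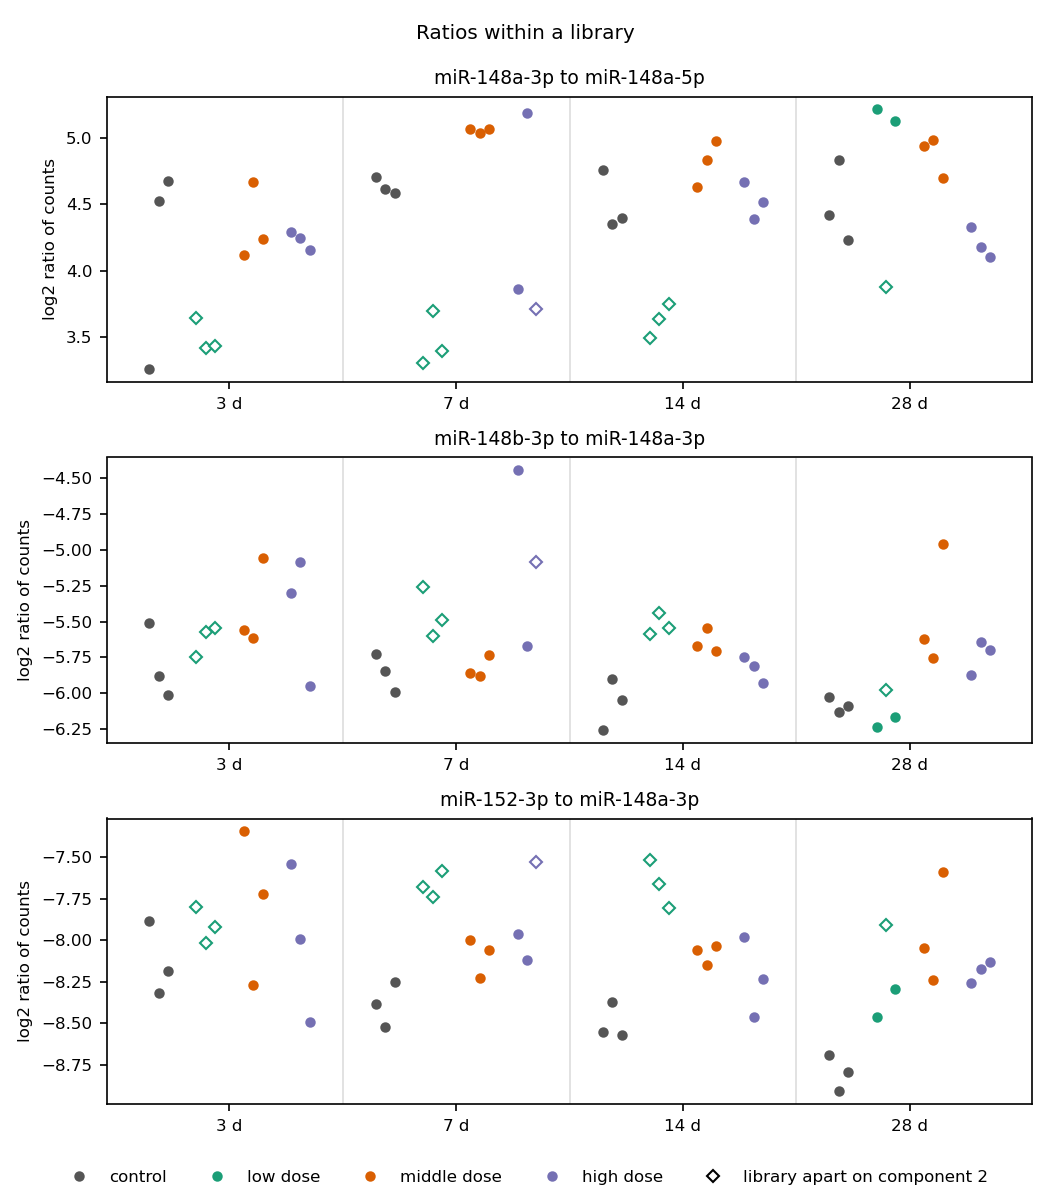
Log2 ratio of counts within each library for the strands of miR-148a (top), miR-148b-3p to miR-148a-3p (middle) and miR-152-3p to miR-148a-3p (bottom), by days of dosing and, from left to right, control, low, middle and high dose. Each point is 1 rat and open diamonds are the libraries that stood apart. In the bottom plot all 9 treated libraries lie above the 3 controls at 7-d and at 28-d, and in the top plot the open diamonds lie between 3.31 and 3.87.

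The strands of the other precursors were compared in the same way, a test added after the file was found to hold them. The log2 ratio of miR-148b-3p to miR-148b-5p was lower in treated libraries by 0.57 at 3-d (5.30 ± 0.64 in controls and 4.73 ± 0.15 in treated libraries, exact permutation p = 0.0182, adjusted over these 8 tests 0.145), where the control mean includes the library with 2 reads of the 5p strand. The other 7 tests of miR-148b and miR-152 had exact permutation p from 0.191 to 0.864. At low 7-d the 3p to 5p ratio of miR-148a changed by -1.17 against the controls, rank 14 by size among 93 precursors with both strands tested, beside a median change of -0.11 and a median size of 0.47. At low 14-d it changed by -0.87 (rank 25). At low 3-d it changed by -0.65 (rank 49), beside a median size of 0.69, and the ratios of miR-148b and miR-152 by -0.51 (rank 57) and -0.26 (rank 73). The ratios of miR-148b and miR-152 at low 7-d changed by -0.03 and 0.00, ranks 92 and 93.

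Over the 16 group means, each member was set beside the 3 miRNAs whose log2 level was most like it by Pearson's r, the points sharing their libraries and scaling. For miR-148a-3p these were rno-miR-802-3p (0.78), rno-miR-802-5p (0.75) and rno-miR-26b-5p (0.69). For miR-148a-5p they were rno-miR-122-5p (0.92), rno-miR-30e-3p and rno-let-7a-5p (both 0.90), and r with its own partner strand was 0.30. For miR-148b-3p they were rno-miR-674-5p, rno-miR-466c-5p and rno-miR-25-3p (all 0.82), and for miR-148b-5p rno-miR-27b-5p (0.88), rno-miR-106b-5p (0.87) and rno-miR-301a-3p (0.83). rno-miR-25-3p was the closest to both miR-152-3p (0.82) and miR-152-5p (0.90). The others were rno-let-7g-5p (0.79) and rno-miR-103-3p (0.78) for miR-152-3p, and rno-miR-181d-5p and rno-miR-103-3p (both 0.86) for miR-152-5p. Among members, r was 0.88 between the strands of miR-148b and 0.79 between those of miR-152. r between miR-148a-3p and the other members was between -0.07 and 0.30. The highest group means of miR-148a-5p were low 3-d, low 7-d and low 14-d (5738, 5016 and 5214), and the next was high 28-d (3151). Those low-dose groups consist of libraries that stood apart, and r without them is not given here.

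Other miRNAs known to act on the same targets were counted in the same 12 conditions. Of the miR-29 strands, which also repress DNA methyltransferases, 2 of 36 tests were called higher and 6 lower (22.2%). rno-miR-29a-3p was called lower in 4 conditions (log2 fold changes from -0.96 to 0.50), and rno-miR-29b-3p, at a median of 28.8 normalized RPM, was called higher in 2. Of the 5 tested of 6 miRNAs linked to cholesterol, 2 of 60 tests were called higher and 3 lower (8.33%). rno-miR-128-3p, which is known to repress the LDL receptor and ABCA1 as well, was called lower in 3 conditions, and rno-miR-33-5p, which represses ABCA1, higher in 2.

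Markers of cell types were counted beside these results. Red blood cell miRNAs were called lower in 20 and higher in 1 of 48 tests (43.8%, against 18.1% over all tested miRNAs), each of the 4 being called lower in 5 conditions and rno-miR-144-3p higher in 1. At low 14-d, where 4 members were called, their summed level was 4171 to 5301 RPM against 3596 to 4934 RPM in controls, and at middle 28-d it was 1677 to 3394 RPM against 2786 to 4642 RPM. The 4 hepatocyte markers were called higher in 2 and lower in 6 of 48 tests (16.7%). rno-miR-122-3p was called lower in 5 conditions, and rno-miR-122-5p higher in 2 and lower in 1. Their summed level was 298818 to 312702 RPM at low 14-d against 233182 to 246610 RPM in controls, and 271004 to 319172 RPM in all libraries that stood apart. This sum was mostly rno-miR-192-5p (median 210053 normalized RPM), which was called in 0 conditions. At low 14-d 1 hepatocyte marker was called higher and 1 lower. The 5 leukocyte markers summed to 1839 to 3092 RPM in the libraries that stood apart and 2246 to 6229 RPM in the others. Of these 13 markers, 12 had reads in every library and rno-miR-155-5p had 0 in 1 library. Their part in the results was not tested.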

How the data were processed

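Small RNA of 48 livers was sequenced, 1 library per rat. Per the methods of the study, adaptors were trimmed, reads of 18 to 25 bases were kept, mapped to the rn5 build and counted on miRBase release 21 with miRDeep2, and quality was checked with FastQC. The authors deposited the raw counts per mature miRNA and precursor, with no normalization. Aligner versions are not given in the sources used here.

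Groups came from the sample labels. Counts of 664 miRNAs were filtered at 5 RPM in at least 3 of 48 libraries, scaled by the upper quartile and tested with edgeR 4.0.16 (quasi-likelihood F-test, R 4.3.3) on the 301 left, in 12 fits of 6 libraries and, for contrasts across groups, 1 fit of 48. The call rule of the study's methods was used, a fold change over 1.5 with p under 0.05 unadjusted, and in the fit of 48 a Benjamini-Hochberg adjusted p-value below 0.05. Ratios are log2 of counts plus 0.5, with 2-sided exact permutation tests (scipy 1.17.1). Principal components were computed from the tested miRNAs without the members. Library totals were 293331 to 14906217 counts, and 3 counts, taken as the floor, equal 10.2 RPM in the smallest library and 0.621 RPM in the next. Floors cover counting error only.

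Named miRNAs are the members, for each member the 3 most alike over the 16 group means of log2 (normalized RPM + 1), and up to 2 of each list (linked to DNA methyltransferases or cholesterol, and markers of hepatocytes, stellate and smooth muscle cells, bile duct, leukocytes, red blood cells, endothelium and pancreas), those called most often. The members and lists were chosen with earlier results of these data known. Alternatives were TMM, size factors of DESeq2 1.42.0, library size alone, other filters, the exact test in edgeR, DESeq2's Wald test, pooled controls, 1 fit of 48, adjusted p-values, pseudocounts of 1 and 0.125, each library left out, and, added after seeing the data, the fits without the 11 libraries that stood apart. The fits were tested on simulated data. No replicates were near-identical.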

Additional observations from a re-analysis of the deposited data

Results flagged for a closer look

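Differences between high and low dose that passed edgeR's quasi-likelihood test in the fit of all 48 libraries concern 2 members. For rno-miR-148a-5p, high minus low was -1.09 on the log2 scale at 3-d (adjusted p = 0.00835), -1.04 at 7-d (adjusted p = 0.0197) and -0.86 at 14-d (adjusted p = 0.0163). Among all tested miRNAs 13.6%, 8.64% and 19.3% passed at these times. All 3 low-dose libraries were above all 3 high-dose libraries on each of these days, and how common this was among all tested miRNAs is not given here. For rno-miR-152-5p, high minus low was -0.71 at 3-d (adjusted p = 0.0165). All low-dose libraries of these days belong to the 11 that stood apart on component 2, so dose and library set cannot be told apart. The 14-d difference of rno-miR-148a-5p did not pass with library size alone (-0.49) or with no filter (-0.61), and the 7-d and 14-d differences did not pass when some single libraries were left out.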

How the results depend on the processing

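Of 3258 values recomputed under the alternatives, 3088 stayed on their side of the threshold or, for counts, within 1.5 times, 101 lost and 68 gained a call (or count) and 1 reversed. Of the 3088, 146 changed sign between values with p above 0.05. The reversal was rno-miR-148a-5p with the doses averaged at 7-d, from 0.09 to -0.52 without the libraries that stood apart. The second value averages middle and high dose only, as all low-dose libraries of that day belong to the set. Calls of members over the 12 conditions moved as follows. rno-miR-148a-3p went from 0 to 1 with TMM, size factors of DESeq2, no filter and the Wald test of DESeq2. rno-miR-148a-5p went from 4 to 3 with library size alone and with adjusted p. rno-miR-148b-3p went from 1 to 0 with TMM, size factors of DESeq2, library size alone, no filter, 5 RPM in every library, the Wald test, pooled controls and without the libraries that stood apart. rno-miR-148b-5p went from 1 to 4 with library size alone, 3 with pooled controls, 3 in 1 fit, 0 with no filter and 0 with adjusted p. rno-miR-152-3p went from 2 to 4 with library size alone and 1 with adjusted p, and rno-miR-152-5p from 2 to 5 with library size alone, 4 with 5 RPM in every library and 1 with adjusted p. Without the libraries that stood apart low dose has no value before 28-d, so calls made there drop out. rno-miR-148a-5p then had 2 (main 4), of which the lower call at low 28-d (-0.62) was not made in the main fit. Both strands of miR-152 had 0.

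With the doses averaged, counts of time points were 2 (library size alone), 0 (no filter) and 0 (without the libraries that stood apart) for rno-miR-148b-3p (main 1), 0 with TMM and with no filter for rno-miR-148b-5p (main 1), 1 with TMM and with library size alone for rno-miR-152-3p (main 0), 2 with TMM and library size alone and 0 with no filter and without the libraries that stood apart for rno-miR-152-5p (main 1), and 1 without those libraries for rno-miR-148a-5p (main 0). For high minus low, rno-miR-148a-5p had 0 of 1 computable time points without them (main 3), and rno-miR-152-5p 0 with library size alone and 0 without them (main 1). The control level of rno-miR-152-5p over time was not called (0) without them. The cause was not tested.

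Leaving out 1 library, calls over the conditions were 0 to 1 for rno-miR-148a-3p and rno-miR-148b-3p, 3 (without control 28-d replicate 18) to 5 (without low 28-d replicate 29) for rno-miR-148a-5p, 0 to 2 for rno-miR-148b-5p and 1 to 3 for both strands of miR-152. With doses averaged they were 0 to 1 for both strands of miR-148b and rno-miR-152-3p and 0 to 2 for rno-miR-152-5p. They were 0 to 1 for rno-miR-152-5p (high minus low, and control level) and rno-miR-148a-5p (28-d minus 7-d). The 14-d log2 ratios to miR-148a-3p were 0.45 to 0.57 for miR-152-3p and 0.31 to 0.49 for miR-148b-3p. Pseudocounts and edgeR's exact test changed none of these counts or ratios' calls. No paired analysis was possible because the groups share no replicate number. The smallest library limits members under 10.2 RPM at 3-d, and 3 rats a group limit all tests.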

Other observations

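Among the marker lists of other cell types, those of stellate and smooth muscle cells were called higher in 6 and lower in 8 of 72 tests (19.4%), with 4 lower calls of rno-miR-145-5p and 3 higher calls and 1 lower call of rno-miR-199a-5p. Those of bile duct and epithelium were called higher in 5 and lower in 8 of 60 tests (21.7%), with rno-miR-200c-3p higher in 4 conditions at a median of 8.84 normalized RPM and rno-miR-429 lower in 4. Leukocyte markers were called higher in 4 and lower in 6 of 60 tests (16.7%). rno-miR-150-5p, a lymphocyte miRNA, was lower in 4 conditions and rno-miR-155-5p, which rises in activated leukocytes, was higher in 3. Over all tested miRNAs 18.1% of tests were called. Of 24 tests of 2 endothelial markers 6 had an unadjusted p below 0.05 and 0 were called by edgeR or DESeq2, and of 12 tests of 1 pancreas marker 2 and 0. Their median log2 fold changes were between -0.31 and 0.51 and between -0.43 and 0.46.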
